A study of Mus musculus with 9 samples.

Results

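The expression of 9 genes of the red cell lineage was examined in the liver of young mice given doxycycline (Dox) or tetracycline (Tc). The genes were chosen by name, with earlier results of these data known. They were the adult alpha globin genes Hba-a1 and Hba-a2, the adult beta globin genes Hbb-bs and Hbb-bt, and the membrane genes Slc4a1 and Epb42. The others were the transcription factor gene Klf1, the globin chaperone gene Ahsp and the carbonic anhydrase gene Car1. Of these 9 genes, 8 had a row among the 32285 of the deposited table. Their rows were ENSMUSG00000069919 (Hba-a1), ENSMUSG00000069917 (Hba-a2), ENSMUSG00000052305 (Hbb-bs), ENSMUSG00000073940 (Hbb-bt), ENSMUSG00000006574 (Slc4a1), ENSMUSG00000054191 (Klf1), ENSMUSG00000023216 (Epb42) and ENSMUSG00000027556 (Car1). Ahsp had no matching symbol and was not analysed here. A mean of at least 10 normalized counts, the minimum for the test, was reached by 7 of the 8, and Epb42 stayed under it. Slc4a1 passed that minimum through the control libraries.

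Liver RNA was sequenced from 3 groups with 3 libraries each. All mice, the controls included, were of the Tet-OFF model and received tamoxifen. Dox or Tc was given at 2 mg/mL in sweetened drinking water for 7 days to mice that were 4 weeks old. By the study's methods the mice carry PB CAG-CreERT2 together with LSL-tTA and tetO-Venus-ires-mCherry alleles at Rosa26, from V6.5 embryonic stem cells of C57BL/6 and 129 origin. CAG is a broadly active promoter, so recombination is not limited to hepatocytes or to blood cells. In a Tet-OFF mouse either drug also switches off the tetO transgene, so the drug and the transgene's state cannot be told apart in these groups.

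Haemoglobin of the adult red cell is built from alpha and beta globin chains, each carrying heme, and its genes are transcribed in erythroblasts under Gata1 and Klf1, which bind GATA and CACCC elements. The fetal liver is the main site of red cell formation, which moves to bone marrow and spleen around birth. Reticulocytes and red cells in blood still hold globin RNA, while RNA of Klf1 or Epb42 marks nucleated erythroblasts more closely.

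The globin genes come in pairs whose coding sequences are nearly the same, and this limits how their reads can be assigned. Hba-a1 and Hba-a2 lie on chromosome 11 of GRCm38 (chr11:32283511-32284465 and chr11:32296489-32297298, plus strand), and Hbb-bs and Hbb-bt on chromosome 7 (chr7:103826534-103828096 and chr7:103812524-103813996, minus strand). In GENCODE vM21 the 429 coding bases of Hba-a1 and Hba-a2 differ at 1 position, C381T, and the 444 coding bases of Hbb-bs and Hbb-bt at 1 position, C417T. Positions count from 1 at the A of the start codon, and the first base is that of Hba-a1 or Hbb-bs. The stretches around these positions (356 to 406 in the alpha and 392 to 442 in the beta genes) show how little separates the members of a pair, with the differing base in capitals.
Hba-a1: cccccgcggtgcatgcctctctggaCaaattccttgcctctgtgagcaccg
Hba-a2: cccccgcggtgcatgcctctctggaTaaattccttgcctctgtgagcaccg
Hbb-bs: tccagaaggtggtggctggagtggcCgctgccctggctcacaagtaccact
Hbb-bt: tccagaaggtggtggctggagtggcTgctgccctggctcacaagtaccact
Reads were 86 bases long and only uniquely mapped ones were counted. Of all 86-base windows of a transcript, 59.8% in Hba-a1 and 78.3% in Hba-a2 also occur in the partner gene, as do 63.5% in Hbb-bs and 55.8% in Hbb-bt. Windows of Slc4a1, Klf1 and Epb42 occur in no other transcript, and 4.15% of those of Car1 also occur in Gm5843. Levels of the 4 globin genes are therefore too low in all groups and uncertain within a pair. The reference holds the beta globin genes of C57BL/6, and the alleles these mice carried were not tested.

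The sequences before the transcription start are shown for the beta globin genes, 1 alpha globin gene and Klf1, because the globin genes had lower values with either drug while Klf1 had higher values with Dox. Each stretch holds the 130 bases before the RefSeq start (GRCm38.p6), some of which lie within longer GENCODE transcripts. The capitals mark the CACCC box, the CCAAT box, the GATA element GATAA and the TATA-like element ATATAA on either strand, and matches can overlap.
Hbb-bs, chr7:103827929-103828058, minus strand: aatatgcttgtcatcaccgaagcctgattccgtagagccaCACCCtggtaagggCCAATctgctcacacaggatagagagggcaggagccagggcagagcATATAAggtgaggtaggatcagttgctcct
Hbb-bt, chr7:103813924-103814053, minus strand: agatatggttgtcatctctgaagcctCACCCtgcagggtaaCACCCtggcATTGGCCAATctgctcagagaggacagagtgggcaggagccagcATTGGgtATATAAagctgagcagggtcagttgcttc
Hba-a2, chr11:32296362-32296491, plus strand: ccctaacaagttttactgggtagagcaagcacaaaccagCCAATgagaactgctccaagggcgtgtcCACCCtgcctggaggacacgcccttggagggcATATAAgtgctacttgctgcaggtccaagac
Klf1, chr8:84901852-84901981, plus strand: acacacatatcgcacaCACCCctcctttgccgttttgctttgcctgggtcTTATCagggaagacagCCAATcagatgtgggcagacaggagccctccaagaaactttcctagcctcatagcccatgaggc
Motifs were searched in windows of the 250 bases before the start. Among 32851 RefSeq promoters 52% held the CACCC box, 33.8% the CCAAT box, 22.6% the GATA element and 9.1% the TATA-like element. The windows of all 4 adult globin genes held at least 1 match to each of these motifs. The Klf1 window held the CACCC and CCAAT boxes and the GATA element but not the TATA-like one. The windows of Hba-a1 and Hba-a2 share a run of 247 identical bases among the 250 before the start, so only Hba-a2 is printed. The Epb42 window held the GATA element alone. Promoters of Slc4a1 and Car1 are not shown. A match only says that these letters are present.

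Between 7426136 and 12183041 reads fell on genes in each library, so 1 read was worth 0.842 to 1.27 normalized counts. Library 3 of each group lay between the other libraries of its group for most genes that differed over 2-fold between libraries 1 and 2. This held for 501 of 586 genes in controls, 4139 of 4264 with Dox and 962 of 1022 with Tc. A wide gap between libraries 1 and 2 by itself makes a middle value in library 3 likelier. The share to be found among independent livers was not tested. Among the 8 members with a row, library 3 was the middle one for 7 in controls, 7 with Dox and 5 with Tc. Labels do not say which mouse each library came from, although the methods speak of biological triplicates. P-values here measure the spread between these libraries, they are too small if library 3 is no liver of its own, and adjusted p-values without libraries 3 are given for each of the tested members with Dox. Dox and Tc were each compared with the same 3 control libraries.

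The adult globin genes had lower values in every Dox and Tc library than in every control library. The size of the gap depended on which control library was taken. Hbb-bs, the more abundant beta globin gene, had 815, 3277 and 2222 normalized counts in the control libraries, 708, 481 and 604 with Dox, and 573, 748 and 555 with Tc. The lowest control library was close to the highest Dox library, whereas the highest control was 4.02 times the lowest. In log2(normalized count + 1), the scale of every limma fold change here, Hbb-bs differed from the controls by -1.62 with Dox (95% interval -2.62 to -0.61), which did not pass the test in limma (adjusted p = 0.0574). The difference with Tc was -1.55 (adjusted p = 0.26).

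Hbb-bt, the minor beta globin gene, fell with Dox. It had 138, 662 and 420 normalized counts in the controls, 80.0, 47.2 and 81.8 with Dox and 82.0, 96.2 and 72.4 with Tc. The groups given a drug did not overlap the controls, and they overlapped each other. Hbb-bt decreased by 2.30 on the log2 scale with Dox (95% interval -3.45 to -1.15, limma adjusted p = 0.0318). With Tc the difference was -2.01 (adjusted p = 0.192).

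The alpha globin genes followed the beta globin genes. Hba-a1 had 237, 963 and 591 normalized counts in the controls, 191, 120 and 138 with Dox and 139, 204 and 179 with Tc. Hba-a2 had 168, 725 and 472 in the controls, 143, 67.9 and 113 with Dox and 116, 147 and 121 with Tc. Both genes were highest in control library 2 and lower in all 6 libraries of treated mice than in any control. Hba-a1 decreased by 1.80 with Dox (95% interval -2.82 to -0.78, limma adjusted p = 0.0444), and Hba-a2 decreased by 1.90 (95% interval -3.01 to -0.78, adjusted p = 0.0499). With Tc the differences were -1.57 for Hba-a1 (adjusted p = 0.259) and -1.59 for Hba-a2 (adjusted p = 0.287). Without libraries 3, the 4 globin genes had adjusted p-values from 0.568 to 0.576 in limma and from 0.0502 to 0.255 in DESeq2 with Dox. None of their calls held there, and none held with the replicate block in limma. In RNA of whole liver, fewer red cells and less globin RNA per cell cannot be told apart.

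**Figure D1:**
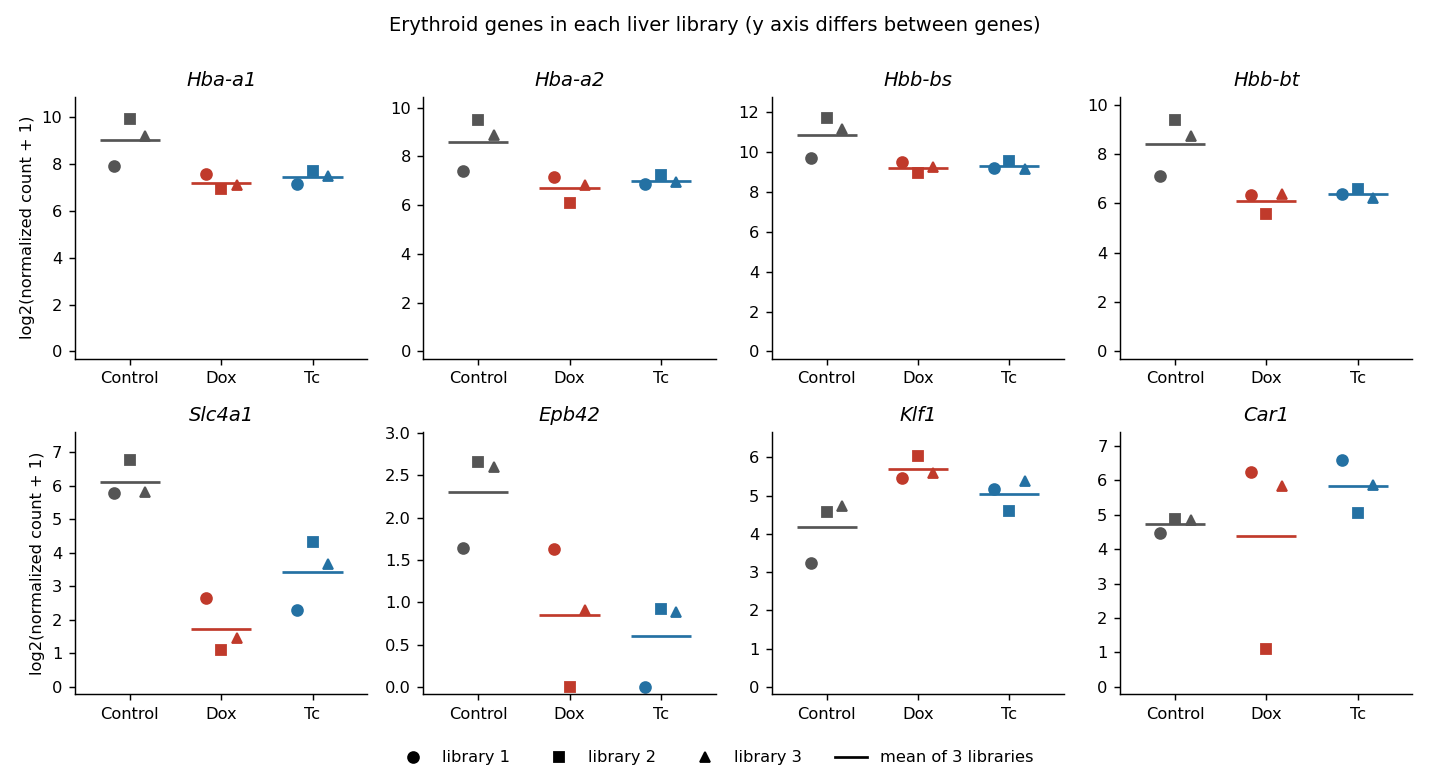
Log2(normalized count + 1) of the 8 erythroid genes with a row, by group (x axis), with 1 point per library, the library number as the marker and a line at the mean of the 3 libraries. The 4 globin genes and Slc4a1 lie lower in all Dox and Tc libraries than in any control, Klf1 lies higher in all Dox libraries, and Car1 drops to 1.15 normalized counts in Dox library 2 alone.

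Summed over the 4 adult globin genes, globin took 0.0123%, 0.0583% and 0.0353% of the reads on genes in the controls, 0.0112%, 0.00838% and 0.0103% with Dox and 0.00912%, 0.0109% and 0.00907% with Tc. Globin RNA was thus a small share of liver RNA in every library. The control group varied widely, with a mean of 0.0353% ± 0.0230 (SD, n = 3), against 0.00996% ± 0.00145 with Dox and 0.00970% ± 0.00105 with Tc. The alpha to beta ratio of normalized counts was 0.402 to 0.429 in controls, 0.355 to 0.424 with Dox and 0.389 to 0.478 with Tc, so that both chains were lower together. Per kilobase of exon, control means were 2741 normalized counts for Hbb-bs, 736 for Hba-a1, 682 for Hba-a2 and 578 for Hbb-bt. The last 3 values lie well within the spread between control libraries.

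Within the beta pair, the share of Hbb-bs did not overlap between treated and control livers. Hbb-bs made up 83.2% to 85.6% of beta globin counts in the controls, 88.1% to 91.1% with Dox and 87.5% to 88.6% with Tc. The Dox and Tc shares overlapped. Because 55.8% or more of the read windows of these genes are shared, this share rests on the unshared parts of the transcripts.

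Slc4a1, which encodes band 3, the chloride and bicarbonate exchanger of the red cell membrane, had the largest difference among the members tested. It lies on chromosome 11 (chr11:102348824-102366203, minus strand) and no exon of another gene overlaps it. The controls had 54.0, 107 and 54.7 normalized counts. Dox libraries had 5.26, 1.15 and 1.76, from 5, 1 and 2 reads, and Tc libraries had 3.91, 18.9 and 11.8, from 4, 21 and 14 reads. Every library of a treated mouse was lower than every control, and 2 of the 3 Dox libraries held fewer than 3 reads. Slc4a1 decreased by 4.37 on the log2 scale with Dox (95% interval -5.77 to -2.98, limma adjusted p = 0.00942). With Tc the difference was -2.68 (95% interval -4.08 to -1.29, adjusted p = 0.166). Because the controls alone carried Slc4a1 past the minimum, the fit with no minimum is given too, in which the adjusted p with Dox was 0.00892. Without libraries 3 it was 0.558 in limma and 0.0055 in DESeq2.

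Relative to globin, Slc4a1 was also lower with Dox. It amounted to 39.8, 19.0 and 14.8 per 1000 globin counts in the controls, 4.69, 1.61 and 1.88 with Dox and 4.29, 15.8 and 12.7 with Tc. The Dox libraries did not overlap the controls, whereas 1 Tc library lay within the control range.

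Epb42, which encodes protein 4.2, a partner of band 3 in the membrane, was near the limit of detection (chr2:121017891-121037072, minus strand). It had 2.12, 5.31 and 5.09 normalized counts in the controls, 2.11, 0 and 0.880 with Dox and 0, 0.899 and 0.842 with Tc. These are 12 reads over the controls, 3 over the Dox and 2 over the Tc libraries, too few for the main test. With no minimum, limma gave log2 differences of -1.45 with Dox (adjusted p = 0.137) and -1.70 with Tc (adjusted p = 0.283). At this depth, 3 reads in a library are worth 2.53 to 3.81 normalized counts, so an absence cannot be read from these values.

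Klf1, the erythroid factor named above, went the opposite way in its values. It lies on chromosome 8 (chr8:84901928-84905291, plus strand). It had 8.47, 23.0 and 25.4 normalized counts in the controls, 43.2, 64.4 and 47.5 with Dox and 35.2, 23.4 and 40.4 with Tc. All Dox libraries were above all control and Tc libraries, and the Tc libraries overlapped the controls. The log2 difference with Dox was 1.51 (95% interval 0.57 to 2.46), which did not pass in limma (adjusted p = 0.057), passed with DESeq2 on recovered reads (log2 1.45, adjusted p = 0.0103) and did not pass with edgeR (log2 1.44, adjusted p = 0.0576). Without libraries 3 the adjusted p was 0.568 in limma and 0.328 in DESeq2. Per 1000 globin counts, Klf1 amounted to 4.09 to 6.86 in the controls, 38.5 to 90.0 with Dox and 19.5 to 43.6 with Tc. The protein-coding genes on either side, Gcdh and Dnase2a, had log2 differences of -0.04 (adjusted p = 0.922) and -0.16 (adjusted p = 0.431) with Dox.

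**Figure D2:**
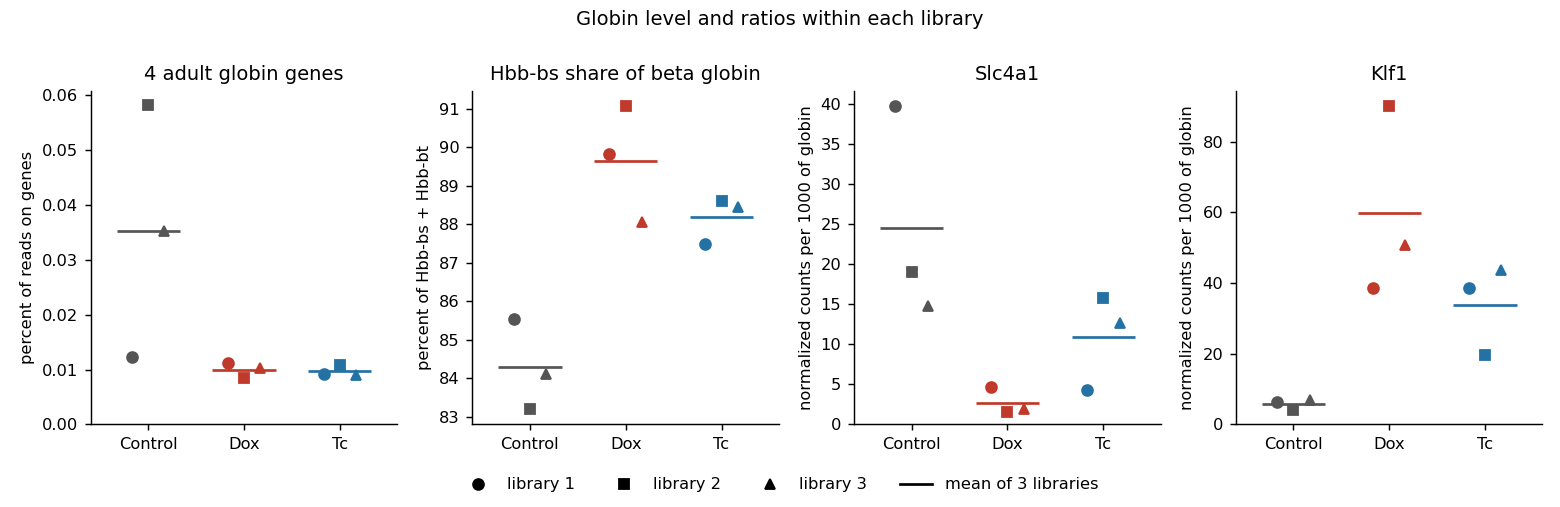
Share of reads on genes taken by the 4 adult globin genes (percent), the share of Hbb-bs in beta globin counts (percent, axis not from 0), and normalized counts of Slc4a1 and Klf1 per 1000 of globin, each by library (points) with the group mean (line). The globin share varies from 0.0123% to 0.0583% among controls and stays between 0.00838% and 0.0112% in treated livers. Slc4a1 per globin lies under the controls in all Dox libraries, and Klf1 per globin is higher in every treated library. Globin, by which Klf1 is divided, was lower in those libraries, and the Klf1 counts themselves overlapped the controls with Tc.

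Car1, a carbonic anhydrase of erythroid cells that is also found in other tissues, did not follow the globin genes. It lies on chromosome 3 (chr3:14766216-14808368, minus strand). It had 21.2, 28.3 and 28.0 normalized counts in the controls, 74.8, 1.15 and 56.3 with Dox and 94.7, 32.4 and 57.3 with Tc. Dox library 2 held a single read, while the other Dox libraries and all Tc libraries were above the controls. The log2 difference was -0.34 with Dox (95% interval -3.02 to 2.34, limma adjusted p = 0.87) and 1.10 with Tc (95% interval -1.58 to 3.78, adjusted p = 0.79). Without Dox library 2 the difference with Dox was 1.31 (adjusted p = 0.0476), so its direction rests on that library. Without libraries 3 the adjusted p was 0.827 in limma and 0.943 in DESeq2.

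The genes whose log2 values were most like those of Car1 over the 9 libraries, picked after its values were seen, were the liver genes Keg1 (Pearson r = 0.997) and C9 (r = 0.997), the latter a complement protein made by hepatocytes. Alas2, the erythroid form of the enzyme that starts heme synthesis, had 119, 335 and 222 normalized counts in the controls, 1368, 46.0 and 828 with Dox and 1212, 115 and 775 with Tc (r = 0.871 with Car1). Car3, a carbonic anhydrase gene 55144 bases from Car1, had 1722, 1796 and 1861 in the controls, 33016, 15.0 and 19947 with Dox and 19704, 4327 and 12700 with Tc. In each of these genes Dox library 2 was lowest. Correlations of Car1 with the 4 globin genes and Slc4a1 ran from 0.048 to 0.184. These r values describe 9 libraries in 3 groups that share controls.

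**Figure D3:**
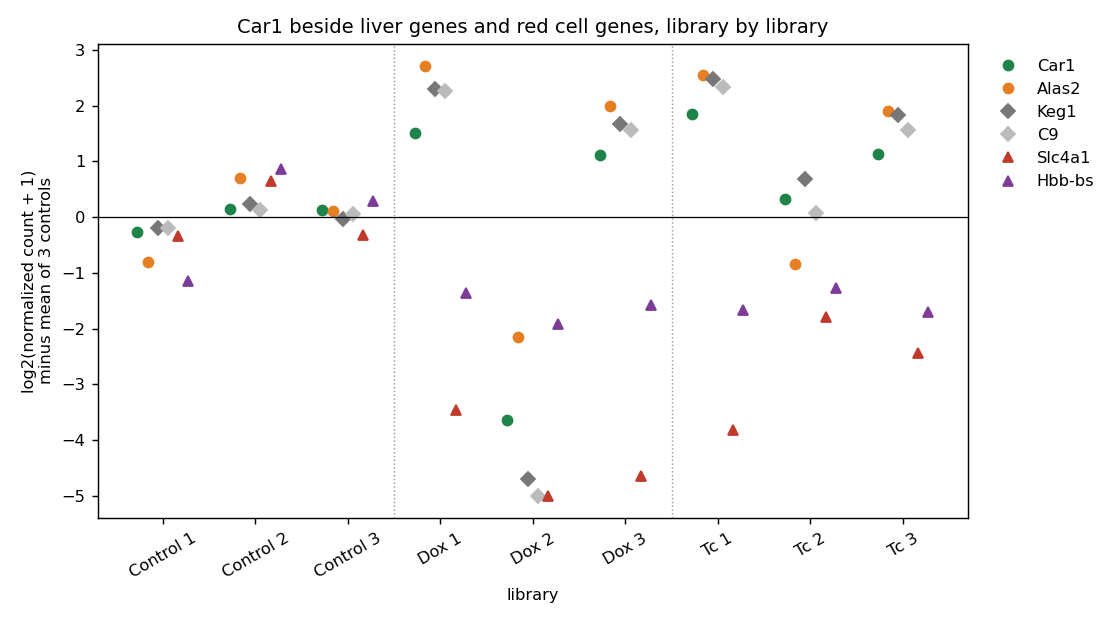
Log2(normalized count + 1) minus the mean of the 3 controls (y axis) in each library (x axis) for Car1, Alas2, the liver genes Keg1 and C9, and the red cell genes Slc4a1 and Hbb-bs. Car1 and Alas2 lie with Keg1 and C9, low in Dox library 2 and high in Dox libraries 1 and 3, whereas Slc4a1 and Hbb-bs lie under the controls in all 6 treated libraries.

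Of the 7 members tested with Dox, 4 passed a fold change over 2 and an adjusted p under 0.05, all lower (Slc4a1, Hbb-bt, Hba-a1 and Hba-a2). Slc4a1 reached the minimum through the controls, and of the other 6 members 3 passed. Among all 12100 genes tested with limma, 3.86% passed lower and 1.14% higher. The members were chosen with earlier results of these data known, so shares set beside those of all genes only describe them. The unadjusted p was under 0.05 for 6 of the 7 and for 29.1% of all genes. The median log2 difference was -1.80 over the 7 members and 0.00 over all genes. With Dox 5 of the 7 lay under all controls, as did 17.1% of all genes, and 1 lay above, as did 16.1%. With DESeq2 on recovered reads 6 of the 7 passed, the 4 globin genes and Slc4a1 lower and Klf1 higher, against 5.77% of genes lower and 2.94% higher. Without libraries 3, limma called 0 members and 0 genes at all, 8.58% of genes having an unadjusted p under 0.05, while DESeq2 called Slc4a1 alone (log2 -4.62, adjusted p = 0.0055), with 0.623% of genes lower. Leaving out 1 library at a time gave 0 to 6 called members with limma: 0 without control library 3 or Dox library 3, Slc4a1 alone without control library 2 or Tc library 3, and Slc4a1 and Hbb-bt without Tc library 1 or 2.

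With Tc, limma called 0 of 7 members and 0.165% of all genes. The unadjusted p was under 0.05 for 5 of the 7 and for 11.7% of all genes, and the median log2 difference was -1.57 over the members. In their values, 5 of the 7 lay under all controls, as did 14.9% of all genes, and Car1 lay above, as did 15.8%. DESeq2 called the 4 globin genes and Slc4a1, all lower (adjusted p from 0.000789 to 0.0126), against 0.849% of genes lower, and edgeR called 0 members and 0.193% of genes. Without libraries 3, DESeq2 called 0 members and 0.0291% of genes. With limma, Slc4a1 (adjusted p = 0.0332) and Hbb-bt (adjusted p = 0.0469) passed when Dox library 2, which enters only through the shared spread, was left out.

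Dox and Tc were given at the same concentration and for the same time, and their livers were compared directly for each of the 7 members. Both are tetracyclines, and doxycycline is a semisynthetic member of the class. No member passed in limma, DESeq2 or edgeR (0 of 7 each), while 0.215% of all genes did in limma, 4.53% in DESeq2 and 0 genes in edgeR. The unadjusted limma p was under 0.05 for 1 member, Slc4a1, and for 21.7% of all genes. The log2 difference of Slc4a1, Dox minus Tc, was -1.69 (95% interval -3.09 to -0.29, adjusted p = 0.179), and it passed without Dox library 1 (log2 -2.14, adjusted p = 0.0428). The 4 globin genes differed by -0.31 to -0.07, and the intervals reached from -1.45 to 0.93, so that a 2-fold lower level with Dox lies within each of them. Klf1 differed by 0.65 (95% interval -0.29 to 1.59) and lay above all Tc libraries in every Dox library, as 12.2% of all genes did. Car1 differed by -1.44 (95% interval -4.12 to 1.24).

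**Figure D4:**
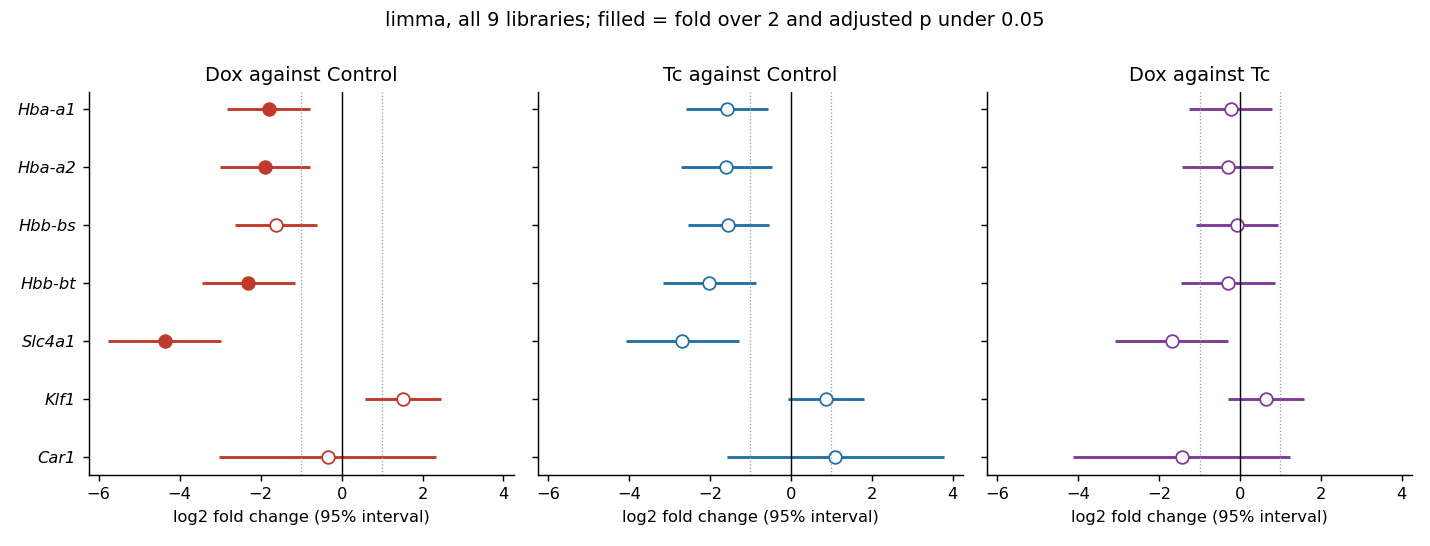
Log2 fold changes (x axis) of the 7 tested members with 95% intervals from limma in all 9 libraries, for Dox against Control, Tc against Control and Dox against Tc. Filled points passed a fold over 2 and an adjusted p under 0.05, which 4 members did with Dox and 0 in the other comparisons, and dotted lines mark a fold of 2.

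Some other genes of the erythroid programme were too rare to test. Of the erythroid and embryonic globin lists, 29 genes with a row fell under the minimum, Epb42 included. Together they had 58, 177 and 81 reads in the controls, 25, 22 and 31 with Dox and 21, 49 and 33 with Tc. In normalized counts these sums were 61.4 to 157 in the controls, 25.3 to 27.3 with Dox and 20.5 to 44.1 with Tc, and the treated groups did not overlap the controls. The embryonic globin genes Hba-x, Hbb-y, Hbb-bh1 and Hbb-bh2 had 0 reads in all 9 libraries.

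Among these rare genes, Hemgn, an erythroid nuclear factor, had 1.06, 6.19 and 3.81 normalized counts in the controls and 0 in all 6 treated libraries. Gata1, the master factor of erythroid cells, had at most 3.54 in the controls and 3.60 with Tc, and Rhag at most 1.77. The skeleton gene Ank1 had 5.29, 11.5 and 12.7 in the controls, 1.05 to 2.30 with Dox and 1.95 to 4.50 with Tc.

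The lists of red cell genes were described from the same fit, in which 29.1% of all genes had an unadjusted p under 0.05 with Dox. Of the 159 listed genes other than members, tested or not, 14 passed with Dox in limma, all lower. Of these 14, DESeq2 called 13, and without libraries 3 limma called 0 and DESeq2 6. Among all genes tested with Dox, 3.86% passed lower and 1.14% higher in limma, and 5.77% lower and 2.94% higher in DESeq2. None of the 8 erythroid regulators tested passed with Dox in limma (median log2 difference -0.19, 4 with an unadjusted p under 0.05), and DESeq2 called 3 lower and 1 higher of 11. Epor, the erythropoietin receptor gene, had a log2 difference of -1.32 (limma adjusted p = 0.0604). Of 7 red cell membrane genes, 0 passed (median -0.37, 2 with an unadjusted p under 0.05), and DESeq2 called 3 of 11 lower. Of 9 genes of red cell maturation, 2 fell with Dox, among them Tent5c (log2 -1.72, limma adjusted p = 0.00468), and the list's median was -0.25.

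Tent5c, a poly(A) polymerase gene active in erythroblasts and other cells, was the 1 gene of all lists that passed with Tc (log2 -1.32, limma adjusted p = 0.0316). It had 401, 526 and 446 normalized counts in the controls, 134, 133 and 144 with Dox and 189, 151 and 211 with Tc. Both treated groups were separated from the controls. The call with Tc was lost with the same total per library (adjusted p = 0.0664) and, in DESeq2, without libraries 3 (adjusted p = 0.0977). With Tc, the erythroid regulator, membrane and maturation lists had median log2 differences of -0.38, -0.15 and -0.28, and 1, 0 and 2 genes with an unadjusted limma p under 0.05.

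Genes of heme synthesis and iron uptake did not follow the globin genes. Of 14 tested, 0 passed in either comparison with limma (medians -0.07 with Dox and 0.27 with Tc), 3 having an unadjusted p under 0.05 with Dox and 0 with Tc. DESeq2 called 1 lower with Dox and 0 with Tc. Alas2 differed by 0.86 with Dox (adjusted p = 0.683) and by 1.20 with Tc (adjusted p = 0.791). Tfrc, the transferrin receptor gene, ranged from 224 to 598 normalized counts over all libraries. Its log2 differences from the controls were -0.09 with Dox and 0.10 with Tc.

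Genes that capture or break down free haemoglobin and heme were counted as well. Hp, the haptoglobin gene, fell with Dox (log2 -1.75, limma adjusted p = 0.0389), from 71345 to 86725 normalized counts in the controls to 17091 to 33222. The call of Hp was lost in limma with no minimum (adjusted p = 0.0878). Without libraries 3 it was lost in limma (adjusted p = 0.573) and DESeq2 (adjusted p = 0.207). Hp was the 1 gene of 10 that passed in limma (median -0.67), whereas DESeq2 called 4 lower and 1 higher. Hpx, the hemopexin gene, differed by -1.26 (adjusted p = 0.0778), and Cd163, the macrophage receptor for haemoglobin bound to haptoglobin, by -1.96 (adjusted p = 0.0696). Hmox1, the heme oxygenase gene, had 185, 2083 and 816 normalized counts with Dox against 181 to 303 in the controls. It was high in the library in which Car1 and Alas2 were low. With Tc, 0 of 10 passed (median -0.16, 1 with an unadjusted p under 0.05).

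Signals of red cell formation gave 0 passing genes of 7 in either comparison with limma (medians 0.17 with Dox and -0.24 with Tc, 3 and 2 with an unadjusted p under 0.05). With DESeq2, 2 were called higher with Dox and 1 with Tc. Epo, the erythropoietin gene, had 0 reads in all libraries. Hamp, the hepcidin gene, had 1188, 955 and 942 normalized counts in the controls, 1020, 7223 and 3120 with Dox and 1769, 638 and 1198 with Tc.

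Some markers of other blood cells also fell with Dox. The counts here and in the next paragraph stand beside those of all genes. With Dox, 6050 of 12100 genes had lower fitted values in limma, and 3.86% passed lower in limma and 5.77% in DESeq2. The lists were chosen with earlier results known, so these shares only describe them. Of the 8 tested genes of neutrophil granules, 8 had lower fitted values with Dox (median log2 -2.96) and 2 passed in limma, Mpo (log2 -4.75, adjusted p = 0.0159) and Prtn3 (log2 -7.76, adjusted p = 0.015), while DESeq2 called 7 of 11. Mpo had 9.53, 111 and 66.1 normalized counts in the controls, 0, 1.15 and 0.880 with Dox and 4.88, 9.89 and 6.74 with Tc, so that it reached the minimum through the controls. The sum over the 12 listed genes was 5873 to 7134 in the controls, 37.9 to 531 with Dox and 185 to 16927 with Tc, most of it Lcn2, which hepatocytes also make. Of 4 platelet genes tested, 4 had lower fitted values (median -1.41), and Ppbp fell (log2 -4.55, adjusted p = 0.0114), with 19.1, 68.1 and 61.0 in the controls, 2.11, 1.15 and 0 with Dox and 2.93, 11.7 and 6.74 with Tc, again past the minimum through the controls, and DESeq2 called 2 of 5. The sum over the 10 listed platelet genes was 283 to 553 in the controls, 70.5 to 613 with Dox and 117 to 217 with Tc, Dox library 2 being above every control, and Gp1bb had 0 reads throughout. Within the controls, Mpo, Ppbp and the globin genes were all lowest in library 1 and highest in library 2. How the amount of blood in each liver bears on the globin values was not tested, and the sources used here do not say whether livers were perfused.

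The lymphocyte list had 2 tested genes, 0 of them passing with Dox (median -1.72, 2 with an unadjusted p under 0.05), and DESeq2 called 3 of 8 lower. The sum over its 10 listed genes was 117 to 192 in the controls, 43.7 to 70.5 with Dox and 56.6 to 123 with Tc. Of 12 genes of Kupffer cells, the liver macrophages that take up old red cells, 11 had lower values with Dox (median -1.51) and 3 passed, Clec4f (log2 -1.85, adjusted p = 0.00958), Adgre1 (-1.77, adjusted p = 0.0171) and Csf1r (-1.68, adjusted p = 0.0289), while DESeq2 called 6. Their sum was 10542 to 18603 in the controls, 2837 to 10293 with Dox and 5044 to 9831 with Tc. Of 8 endothelial genes, 8 had lower fitted values (median -0.70) and 2 passed, Stab2 (-1.22, adjusted p = 0.00468) and Cdh5 (-1.02, adjusted p = 0.032). DESeq2 called 1 of 8, and Cdh5, with a log2 difference of -0.98 there, did not pass. The endothelial sum was 5684 to 5911 in the controls, 2806 to 3701 with Dox and 4279 to 5087 with Tc. Of 9 tested genes of dividing cells, Top2a (-2.25, adjusted p = 0.023) and Mki67 (-1.62, adjusted p = 0.049) fell with Dox (median -1.23). DESeq2 called 4 of 12, and Mki67 did not pass in edgeR (adjusted p = 0.0555). The sum over the 12 listed genes was 398 to 633 in the controls, 263 to 391 with Dox and 483 to 799 with Tc. Of 10 hepatocyte genes, Fgb fell (-1.76, adjusted p = 0.0354; list median -0.10). Alb, the defining gene of liver, was abundant in every library but lower in all Dox libraries (255547 to 607452 normalized counts) than in the controls (956160 or more), with a log2 difference of -1.52 (limma adjusted p = 0.208), which passed in DESeq2 (log2 -1.45, adjusted p = 0.00132). Over the 9 libraries the r of Alb was 0.887 with Slc4a1 and -0.869 with Klf1, and the part of the hepatocytes in the members' differences was not tested. With Tc, 0 genes of these lists passed in limma, with an unadjusted p under 0.05 for 2 neutrophil, 1 platelet, 0 lymphocyte, 4 Kupffer cell, 4 endothelial, 0 dividing cell and 0 hepatocyte genes, and DESeq2 called 1 neutrophil and 1 platelet gene. The medians were -1.91 for neutrophil granules, -1.31 for platelets, -0.75 for lymphocytes, -0.93 for Kupffer cells, -0.35 for endothelium, 0.48 for dividing cells and -0.05 for hepatocytes. The part of these cell types in the difference in globin RNA was not tested.

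**Figure D5:**
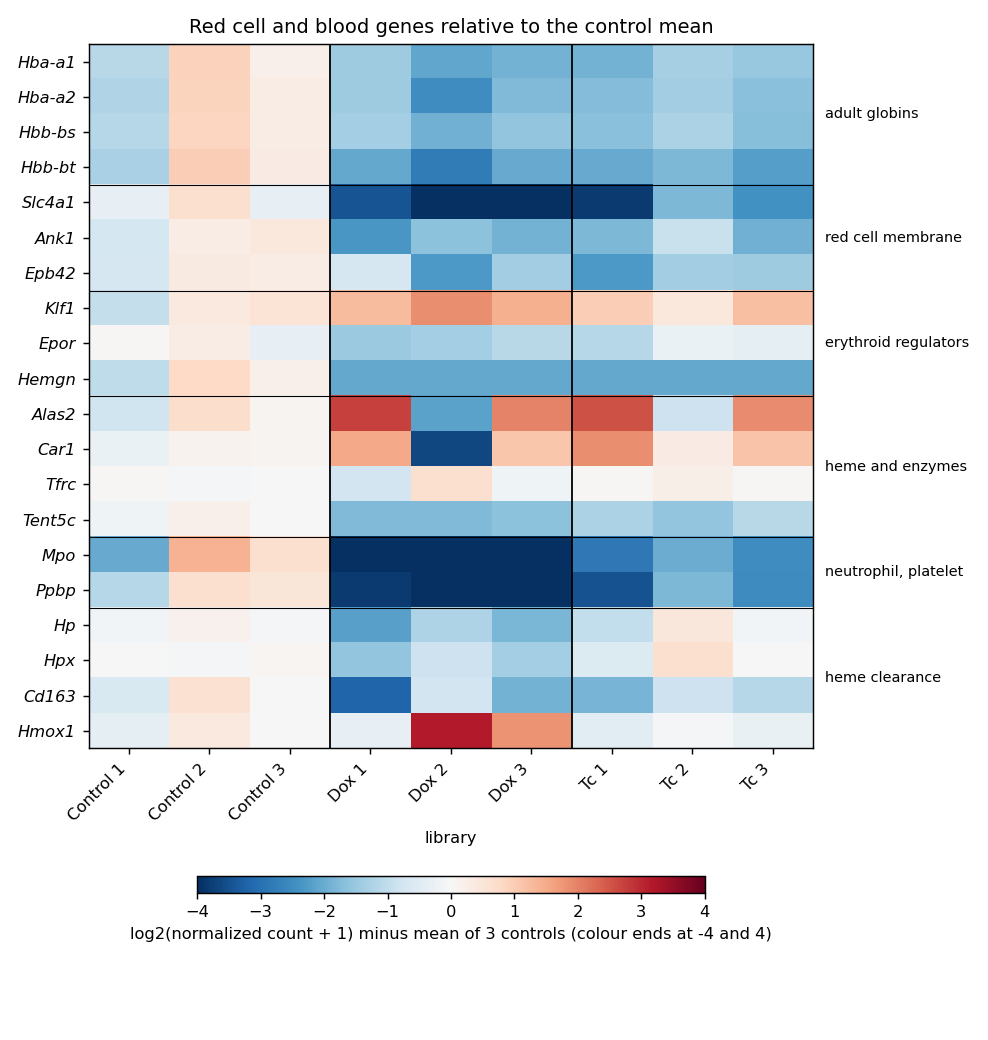
Log2(normalized count + 1) minus the mean of the 3 controls (colour, ending at -4 and 4) for 20 red cell, blood and heme genes (rows) in each library (columns). The globin genes, Slc4a1, Ank1, Epb42, Mpo and Ppbp are mostly lower in the treated libraries. Mpo and Ppbp are the only genes drawn of the neutrophil and platelet lists, whose sums are not lower in every treated library. Other membrane genes are not drawn. Klf1 is higher with Dox, and Alas2 and Car1 are low in Dox library 2 and high in libraries 1 and 3 of both drugs.

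The 5 genes outside all lists with the values most like the mean of the 7 tested members were Myl9 (Pearson r = 0.983 over 9 libraries), Akap17b (0.966), Cdc42se1 (0.965), Cdc26 (0.963) and Htra1 (0.953). Myl9, which encodes a smooth muscle myosin light chain, had 10.6, 31.0 and 21.6 normalized counts in the controls, 11.6, 4.60 and 8.80 with Dox and 11.7, 13.5 and 11.8 with Tc. For 2 single members, chosen after their values were seen, the closest genes were Krt4 for Slc4a1 (r = 0.991) and Mxd4 for Klf1 (r = 0.969). Klf1 itself had a negative r with the mean of the members (-0.49).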

How the data were processed

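Liver RNA was sequenced from 9 libraries in 3 groups (Control, Dox and Tc, 3 each), grouped by the sample labels. The authors trimmed single-end 86-base reads with cutadapt, aligned them to mm10 with STAR 2.7.11ac, counted uniquely mapped reads per gene with HTSeq 2.0.5 and normalized them with DESeq2 1.42.0. The strand setting of the counting is not given in the sources used here. What the authors deposited is a signal, the reads of a gene over the size factor of its library, called normalized counts here. Symbols were matched to 32158 of 32285 identifiers. All columns were used. Coordinates and transcripts are those of GENCODE vM21 (GRCm38), and promoters those of RefSeq.

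Log2(normalized count + 1) was fitted with limma 3.58.1 (R 4.3.3) with a trend. All 9 libraries entered 1 model, which covered the 12100 genes whose mean reached 10. P-values are two-sided with Benjamini-Hochberg adjustment over all of these genes. Whole reads were recovered for 100% of values, within 0.01 of a whole number, and these reads were put through DESeq2 1.42.0 and through edgeR 4.0.16. For Dox against Control DESeq2 called 1214 genes and edgeR 681, and limma 605. The tests were checked on simulated counts of independent libraries with the same spread setting for every gene. That check does not cover a wide spread between controls or libraries that are not independent. Deviations from the group mean correlated weakly between Dox and Tc libraries of the same label number (r = 0.29, 0.32 and 0.18). For control libraries the r with either drug ran from -0.08 to 0.06. Libraries of unlike number were not compared, so a pairing was not established. All comparisons, Dox against Tc included, come from the fit without the replicate block unless it is named. With the block, limma called 2 of 12100 genes for Dox against Tc.

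The 9 members and the 14 lists (159 genes) were chosen with earlier results of these data known. Named genes are the members, 16 preset genes of the lists, list genes past both thresholds in limma and the 5 genes most like the members' mean. Some of these genes are not reported here. Neighbouring genes and the genes most like single members were chosen after values were seen. The fits were repeated with another pseudocount, filter, scaling, tool or set of groups, with the replicate block, and without libraries 3 or any 1 library.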

Additional observations from a re-analysis of the deposited data

How the results depend on the processing

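Directions of the members' log2 differences were kept in 139 of 144 alternatives for Dox against Control and 144 of 144 for Tc against Control. For Dox against Tc they were kept in 139 of 143. Many of these alternatives could not change a direction. In limma, another filter, the replicate block or a fit of only the compared groups leaves a log2 difference as it was. Leaving out a library of the group not compared does the same. These counts therefore overstate how far the directions were put to a test. The number of members called with Dox, 4 in limma with all 9 libraries, was 2 with a mean of at least 50 (for which Slc4a1 is too low), 2 with the same total per library, 1 with DESeq2 without libraries 3, 1 with the replicate block, 1 with only the compared groups in the fit and 0 with limma without libraries 3. It ranged from 0 to 6 when single libraries were left out. With the replicate block Slc4a1 kept an adjusted p of 0.0195 with Dox, and the globin genes had 0.0518 to 0.0796. Of the 14 other listed genes called with Dox the block kept 13 (Fgb had an adjusted p of 0.0626), and it ended the call of Tent5c with Tc (0.0961). With Tc, 0 members were called, against 5 with DESeq2, 1 (Slc4a1) with only the compared groups in the fit and 0 to 2 with single libraries left out. For Dox against Tc the range with single libraries left out was 0 to 1.

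Car1 with Dox changed sign with a pseudocount of 8 (0.12), DESeq2 (0.77), edgeR (0.77), DESeq2 without libraries 3 (0.63) and without Dox replicate 2, with a range of -1.26 to 1.31 over single libraries left out. For Dox against Tc, Car1 changed sign without Dox replicate 2 (range -2.36 to 0.21), and Hbb-bs, a difference near 0, with the same total per library (0.10) and without Dox or Tc replicate 2 (range -0.20 to 0.076). Scaling to the same total moved the median log2 difference of all genes to 0.17 for Dox against Control and 0.16 for Dox against Tc. The cause of these changes was not tested. With 7426136 or more reads on genes per library, Epb42, Slc4a1 with Dox and the rare erythroid genes still had few reads. Globin values varied widely between control libraries. What limits the globin calls was not tested.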
